A study of Rattus norvegicus with 6 samples.

Results

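Circular RNAs (circRNAs) that span less than 300 nt of the genome, and that carry no collagen gene name, were examined in rat dental follicle cells. They were taken by coordinates alone, as rows of the deposited table whose end minus start plus 1 was under 300, leaving out names of the form Col, digits, a, digits. This gave 220 of the 4143 listed circRNAs (5.31%), with spans of 16 to 299 nt and a median of 155.5 nt. Another 86 circRNAs under 300 nt had a collagen name, and 3676 without one spanned 300 nt or more. All the cells were taken from Sprague-Dawley rats 5 to 7 days old, from germs of the first 2 mandibular molars. Serum at isolation was 10% in both groups. The induction cells (3 samples by the labels) were kept for 28 days, from passage 3 to 4, in alpha-modified Eagle medium with 5% fetal bovine serum and 1% of an osteogenic induction liquid. That liquid is listed with dexamethasone at 0.010 mmol/L, ascorbic acid at 0.028 mmol/L and β-glycerophosphate at 1.000 mol/L. The control cells (3 samples) had the same medium and serum without the liquid. The labels disagree on the number of animals, with 3 rats in one passage and 4 in another, so how many lie behind each column is not settled. DNA and linear RNA were removed before sequencing, and nothing in the labels limits the cells to 1 clone or purifies them by a marker.

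A circRNA forms when the splicing machinery joins the end of an exon back to the start of the same or an earlier exon, and reads across that back-splice junction identify it. Most circRNAs hold several exons, or 1 long exon, and their ends are far apart on the genome. A circRNA whose ends lie less than 300 nt apart has little room for an intron, so it can come from 1 short exon, or from a small RNA that is not spliced at all. Which of these applied was not tested.

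Each group was deposited as 1 pooled column. There is therefore no test between conditions, and the values below describe 2 columns. The listed counts summed to 164746 in induction and 137740 in control, which is 74.3% and 67.8% of the column totals behind the TPM values. A ratio is induction TPM over control TPM, with an exact 95% interval that covers counting error only. A circRNA is said to differ where the ratio is at least 2-fold either way and the interval excludes equal levels. TPM here is per junction and was not scaled to length. Of 7 epithelial marker genes none hosted a listed circRNA of any span, and of 6 leukocyte, 5 endothelial and 7 muscle or nerve markers 1 each did (Dock8, Flt1 and Dmd). None of these hosted a short-span one. Of 10 markers of the dental follicle and osteoblast lineage, 3 hosted circRNAs (Cdh11, Runx2 and Sparc), and those of Cdh11 and Sparc included short-span ones. A circRNA is listed only where both columns have counts, so missing markers say little about the cells.

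Exons, introns and strand were not assigned, because no annotation or genome of Rnor_6.0 was used here, and the sequences of the circRNAs themselves are not shown. The promoters of 2 host genes are shown instead. They belong to the matrix hosts of the single short circRNA with the most extreme ratio in each direction. Only hosts whose promoter is in the RefSeq table of GRCr8 were considered. Tnn encodes tenascin N, a matrix glycoprotein, and its short circRNAs were higher in induction. Aebp1 encodes a secreted carboxypeptidase-like protein that binds collagen, and its main short circRNA was lower (5 counts in induction and 33 in control). Its longer circRNA was higher (149 and 33 counts), so Aebp1 does not stand for a host lower as a whole. Each is the 250 bases before the annotated start, 5′ to 3′ on the gene's strand, at chr13:74919790-74920039 (minus strand) for Tnn and chr14:84952604-84952853 (plus strand) for Aebp1. Capitals mark every match, on either strand, to the motifs searched.
Tnn: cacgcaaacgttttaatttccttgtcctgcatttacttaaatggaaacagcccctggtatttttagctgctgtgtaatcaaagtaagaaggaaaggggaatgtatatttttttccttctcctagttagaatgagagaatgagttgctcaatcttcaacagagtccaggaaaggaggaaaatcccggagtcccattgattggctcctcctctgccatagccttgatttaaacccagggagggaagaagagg
Aebp1: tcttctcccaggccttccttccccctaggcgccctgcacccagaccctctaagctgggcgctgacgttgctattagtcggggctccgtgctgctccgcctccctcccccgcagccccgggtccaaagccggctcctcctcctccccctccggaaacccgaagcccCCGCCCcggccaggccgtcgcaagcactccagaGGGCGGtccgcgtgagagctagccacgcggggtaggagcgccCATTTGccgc
The motifs were TATAA, known from promoter cores, CANNTG, the E-box, TGTGGT, which RUNX factors bind, AGAACA, from sites of the glucocorticoid receptor, and GGGCGG, the GC box. The Aebp1 window held GGGCGG on both strands without overlap, and CANNTG close to the start. No motif of the set lay in the Tnn window. Among 33469 promoter windows of this length, 8023 held TATAA, 65.5% CANNTG, 14.5% TGTGGT, 17.5% AGAACA and 30.5% GGGCGG. Matches are letters only and do not show binding.

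Summed over the set, short-span circRNAs were lower in induction. Their counts summed to 7141 in induction and 8084 in control, a ratio of 0.810 (0.785 to 0.837), whereas the longer circRNAs outside collagens summed to 99338 and 84561, a ratio of 1.08 (1.07 to 1.09). They held 4.33% of listed counts in induction (exact interval 4.24 to 4.43) and 5.87% in control (5.75 to 5.99). The short collagen circRNAs had a summed ratio of 1.02 (0.997 to 1.04). By single circRNA the gap was small, with a median log2 ratio of −0.13 for the 220. The median was −0.05 both over all circRNAs and over the longer ones outside collagens. Of the 220, 139 lay below 0 (63.2%, against 51.4% of all circRNAs). Of the 220, 11 were at least 2-fold higher and 27 at least 2-fold lower in induction beyond counting error, which is 5% and 12.3%. Over all 4143 circRNAs the same rule gave 9.22% higher and 9.29% lower, and over the longer ones outside collagens 8.41% and 8.49%. The number that differed in either direction was therefore near the background (17.3% against 18.5%), and the split between directions was not. Lower ones were also above the background at 300 to 499 nt outside collagens, with 14.8% lower and 9.84% higher. The short collagen circRNAs had 20.9% lower and 22.1% higher. A raised share of lower ones was thus not particular to the 220. No spread between libraries is known, so the split between directions has no test.

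**Figure D1:**
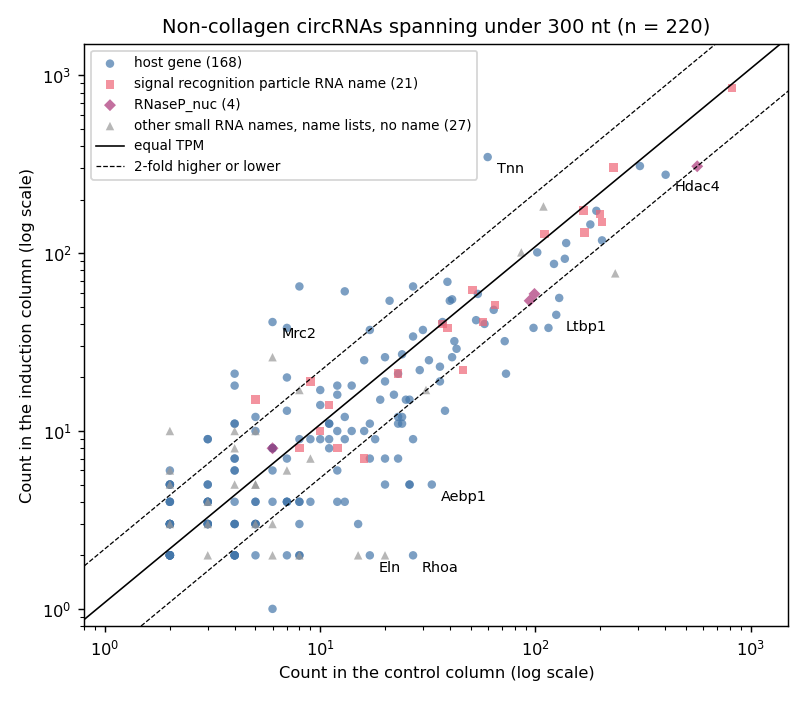
Counts of the 220 non-collagen circRNAs under 300 nt, with the control column on the x axis and the induction column on the y axis (both log scales), marked by kind of name. The solid line is equal TPM and the dashed lines are 2-fold differences. 27 circRNAs differed downward beyond counting error and 11 upward, with the Tnn circRNA of 347 and 60 counts far above the upper line.

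The lower level was not spread evenly over the span range. Summed counts had a ratio of 1.00 (0.938 to 1.07) for the 17 circRNAs under 50 nt, most of which carried a small RNA name. The ratio was 0.737 for 50 to 99 nt, 0.661 for 100 to 149 nt, 0.578 (0.518 to 0.646) for 150 to 199 nt and 0.729 for 200 to 249 nt. It was 1.00 (0.934 to 1.08) for 250 to 299 nt, a range in which Tnn alone had 473 of 1614 induction counts and 81 of 1476 control counts. From 300 to 499 nt it was 0.909 (0.868 to 0.952), and each longer range lay above 1. Among circRNAs with at least 20 counts over both columns, median log2 ratios were −0.53 for 50 to 99 nt (12 circRNAs), −0.46 for 100 to 149 nt (16), −0.96 for 150 to 199 nt (18) and −0.66 for 200 to 249 nt (26). From 500 nt upward every range had a median between 0.08 and 0.14. With deeper counts the gap was wider. Members with 50 counts or more had a median of −0.46, with 40 of 59 below 0, against 0.11 for the longer circRNAs of that depth, with 319 of 733 below 0. Those under 20 counts had a median of −0.12 in both sets. The non-collagen circRNAs nearest the limit on either side had 41 counts or fewer in each column. Just inside the limit, Elf1 (299 nt) had 41 counts in induction and 37 in control, and 2 circRNAs of 298 nt had 5 and 3 counts in induction and 2 each in control. Just outside it, Fanci and Ttc37 (302 nt each) had 15 and 6 counts in induction and 20 and 4 in control, and Gpsm2 (304 nt) had 16 and 5 counts, which is a difference by the rule.

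**Figure D2:**
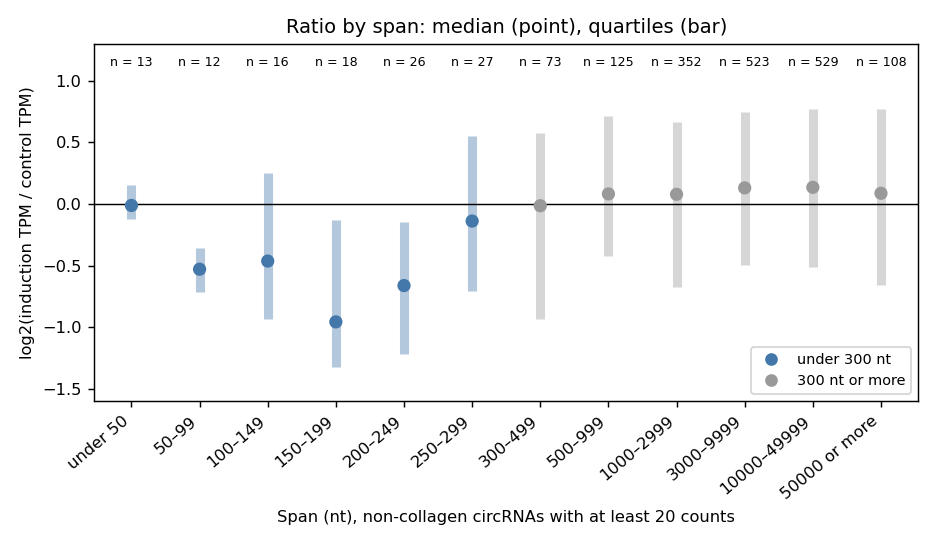
Median log2 ratio of induction over control TPM (points) with quartiles (bars) by span range, for non-collagen circRNAs with at least 20 counts over both columns. The ranges from 50 to 249 nt have medians between −0.46 and −0.96, and those from 500 nt upward lie between 0.08 and 0.14.

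The contrast was also present within host genes, when their own short and longer circRNAs were set side by side. A single host gene could be named for 168 members, from 150 hosts, of which 145 matched RefSeq and 144 were protein coding. Only 13 hosts had more than 1 short-span circRNA, and in 96 hosts the short ones were the only circRNAs listed. The other 54 hosts also had longer circRNAs. In 38 of these 54 the short sum had the lower ratio, with a median difference of −0.63 on the log2 scale. With at least 20 counts in both sums it was 21 of 27 hosts, with a median of −0.88. The 95% intervals of the 2 ratios lay apart in 13 hosts, with the short sum lower in 10 (Med13l, Tnn, AABR07059639.1, Tead1, Arhgap10, Ltbp1, Pik3c2a, Aebp1, Rhoa and Slc18b1) and higher in 3 (Zfp521, Rps6ka5 and Hip1). The same comparison between circRNAs of 300 to 499 nt and those of 500 nt or more gave the lower ratio to the shorter sum in 18 of 37 hosts, with a median of 0.10. These are counts of hosts read from the same 2 columns, and hosts are not replicates.

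Aebp1 showed the contrast most plainly among the matrix hosts. Its short circRNAs summed to 7 counts in induction and 35 in control, while its longer circRNA had 149 and 33, 4.14-fold higher (2.83 to 6.24). The short circRNA of Ltbp1, a protein that stores latent TGF-beta, had 45 counts in induction and 125 in control, and its longer circRNAs had 494 and 252, a ratio of 1.80. Rhoa encodes a GTPase that controls actin stress fibres. Its 152 nt circRNA had 2 and 27 counts, 14.7-fold lower (3.70 to 128), the largest difference downward, and its longer circRNA had 34 and 31. For Med13l, a subunit of the kinase module of Mediator, the short circRNA had 309 and 306 counts, a ratio of 0.926, and the longer ones had 321 and 143, a ratio of 2.06. For Tead1, the DNA-binding partner of YAP and TAZ, the short circRNA had 118 and 204 counts and the longer ones 145 and 85. Zfp521, a zinc finger factor, went the other way, with 54 and 21 counts in its short circRNA (2.36-fold higher) and 86 and 88 in its longer ones.

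**Figure D3:**
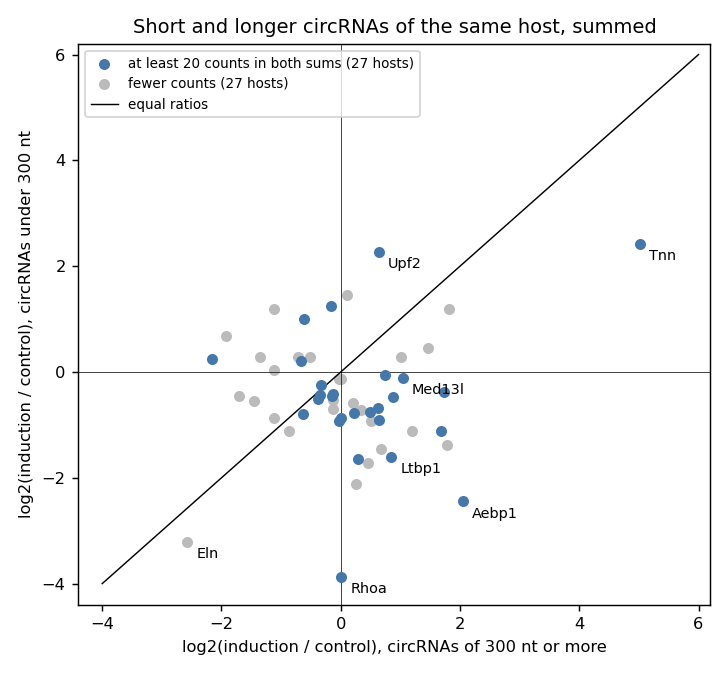
Log2 ratio of induction over control for the summed circRNAs under 300 nt of a host (y axis) against that for its summed circRNAs of 300 nt or more (x axis), for 54 hosts. Points below the diagonal, 38 of 54, have the lower ratio in their short circRNAs.

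The spans of short circRNAs in protein-coding hosts were often a multiple of 3, the length of a codon. Of 161 such circRNAs, 75 had a span divisible by 3 (46.6%), 50 left a remainder of 1 and 36 a remainder of 2. The share was 60% under 100 nt (15 of 25), 48.3% from 100 to 199 nt and 40.8% from 200 to 299 nt. Above the limit it was 25.2% from 300 to 499 nt (28 of 111), and 33.3% over all 3193 circRNAs of 300 nt or more. Counted by host, with the most abundant circRNA of each, it was 44.4% of 144 hosts under 300 nt and 33.2% of 1805 hosts from 300 nt upward. Of the 86 short collagen circRNAs 63 had a span divisible by 3 (73.3%), against 97 of the 220 members of any name (44.1%). A raised share was therefore not particular to the 220. Ratios of induction to control did not follow this property in 1 direction. The median log2 ratio was −0.12 for multiples of 3 and −0.34 for the other short circRNAs, and within 100 to 199 nt it was −0.52 and −0.28. Genes built from repeated protein modules gave several of these spans. Tnn had 3 circRNAs of 264 nt each, and the fibrillins Fbn1 and Fbn2, which build elastic microfibrils, had circRNAs of 120, 123 and 123 nt. Ltbp2, a fibrillin relative, had 1 of 120 nt, and Fbln2 (fibulin 2, another protein with EGF repeats) 1 of 129 nt. Other members of the EGF-repeat and fibronectin type III lists had no such span, namely those of Ltbp1 (292 nt) and Ptprk (272 nt). Whether any of these spans equals an exon was not tested.

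The most abundant single short-span circRNAs carried names of small structured RNAs, but such names did not hold most of the counts. The 163 members whose only name was a host gene held 53.5% of member counts in induction and 53.4% in control. The 15 most abundant members held 52.0% of member counts in induction and 50.1% in control, and 6 of the 15 carried a name of the signal recognition particle RNA. That RNA, also called 7SL, is the scaffold of the particle that takes nascent secreted proteins to the endoplasmic reticulum. Members with its names (LOC102723236, which RefSeq lists as Rn7sl1 with a length of 299 nt, or Metazoa_SRP) numbered 21, at 5 loci. They had 2260 counts in induction and 2292 in control, a ratio of 0.905 (0.853 to 0.959), and took 31.6% and 28.4% of all member counts. By the 2-fold rule 1 of the 21, of 155 nt, was lower (22 and 46 counts), and the other 20 did not differ. Over all circRNAs 18.5% differed by this rule.

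The same spans recurred from locus to locus. CircRNAs of 45, 29 and 16 nt were listed together at 4 loci. At each of them the 29 nt and 16 nt spans lay end to end and filled the 45 nt span exactly. The 29 nt span came first on the reference strand at 2 of the loci and the 16 nt span at the other 2, so the pattern is mirrored between them. A span of 76 nt enclosed the 45 nt span at 3 loci, each time with margins of 7 and 24 nt. The locus on chromosome 6 from 91680295 to 91680474 (Rnor_6.0) had the highest counts, and its 45 nt circRNA, from 91680320 to 91680364, had 851 counts in induction and 822 in control. The 45 nt circRNAs at the other loci had 304 and 231 counts (chromosome 6 from 91457072), 174 and 167 (chromosome 12 from 24796362), and 51 and 65 (chromosome 10 from 59151848). Summed by span, the ratio was 0.985 (0.912 to 1.06) for 45 nt, 1.04 (0.866 to 1.25) for 29 nt and 1.25 (0.834 to 1.89) for 16 nt. For 76 nt it was 0.716 (0.631 to 0.811), with 447 counts in induction and 573 in control, and all 3 loci had fewer counts in induction. Spans of 16, 29, 45 or 76 nt occurred in no member with another name, and all 9 members under 30 nt carried this RNA's names. Whether reads were shared between the loci was not tested, so the loci are not counted as independent. Nor was it tested whether these listed junctions come from circular molecules.

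**Figure D4:**
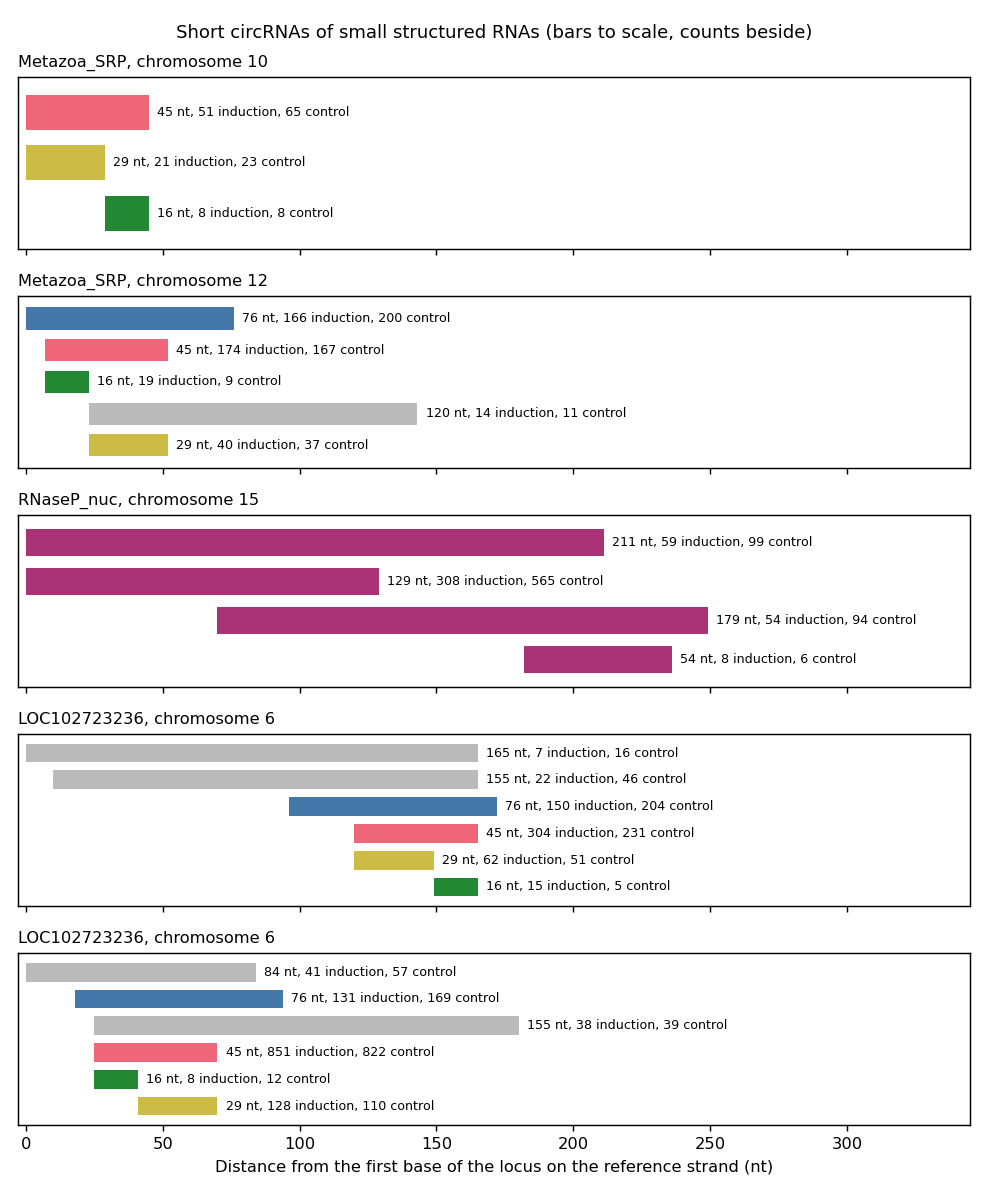
Short circRNAs at the 4 loci that hold spans of 45, 29 and 16 nt, and at the RNaseP_nuc locus, drawn to scale as distance in nt from the first base of each locus on the reference strand, with counts beside each bar. The 29 nt (yellow) and 16 nt (green) bars tile the 45 nt bar (red) at each of the 4 loci, in mirrored order, and 76 nt bars (blue) enclose it at 3.

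RNaseP_nuc, the name of the RNA of nuclear ribonuclease P, which trims the 5′ end of transfer RNA precursors, marked 4 overlapping circRNAs within 249 nt of chromosome 15. Together they had 429 counts in induction and 764 in control, 1.94-fold lower (1.72 to 2.19). The most abundant, from 27739023 to 27739151 (129 nt), had 308 and 565 counts. At a ratio of 0.500 (0.434 to 0.576) it fell short of the 2-fold rule by under 0.001 in the ratio, and it passed under 2 other scalings. Those of 211 and 179 nt had 59 and 54 counts in induction against 99 and 94 in control, with like ratios of 0.547 and 0.527. The fourth, of 54 nt, had 8 and 6 counts. The names U1 and 7SK, alone, marked 4 circRNAs with 30 and 22 counts in all, none of which differed. A further 19 members carried lists of multi-copy names with no host name left, with sums of 459 and 547 counts. The largest of them, 183 nt on chromosome 8 from 54584699, had 77 and 235 counts, 3.33-fold lower (2.56 to 4.36), and no host can be named for it.

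The ends of short circRNAs also recurred in larger circRNAs. In 6 cases a listed circRNA began where a first member began and ended where a second, separate member ended. Of these, 4 were the 45 nt circRNAs above. The fifth was in Tnn, where the outer ends of 2 of the 264 nt circRNAs bounded a circRNA of 2314 nt with 2642 counts in induction and 73 in control (33.2-fold), against 65 and 8, and 61 and 13, for its end pieces. The sixth was listed over 223288 nt, from one chromosome 6 locus of the signal recognition particle RNA to the other, and whether it is a circular molecule was not tested. It had 650 and 364 counts, a ratio of 1.64 (1.44 to 1.87), although the pieces at its ends had 150 and 8 counts in induction against 204 and 12 in control. The other 4 circRNAs between these loci had 1017 to 2505 counts in induction and 1079 to 2233 in control, with ratios of 0.865 to 1.07. Ends shared with any other listed circRNA were found in 62 of the 220 short ones (28.2%), against 44.1% of the longer ones outside collagens. Of the 62, 18 belonged to the signal recognition particle RNA. The share was 19.7% at 300 to 499 nt outside collagens and 65.1% for the short collagen circRNAs. A low share was therefore not particular to spans under 300 nt. No test was made of these differences.

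Matrix genes held members at both extremes of the ratio. In the list of non-collagen matrix and matrix assembly genes, 17 members came from 8 hosts. Of them 3 were higher, 4 lower and 10 neither, with a median log2 ratio of −0.47. Over all circRNAs 9.22% were higher and 9.29% lower, with a median of −0.05. The 39 longer circRNAs of the same list had a median of 0.38, with 8 higher and 3 lower. The 3 higher ones were all of Tnn, on chromosome 13. They had 347, 65 and 61 counts in induction against 60, 8 and 13 in control (from 77869300, 77861167 and 77863217), ratios of 5.31 (4.02 to 7.10), 7.45 (3.57 to 18.0) and 4.30 (2.34 to 8.54). Tenascin N is built from repeated fibronectin type III modules, and whether reads were shared between the 3 spans was not tested. The lower ones were in genes of elastic fibres and collagen handling. The 211 nt circRNA of Eln (elastin) had 2 counts in induction and 17 in control, 9.27-fold lower (2.20 to 82.7). The 201 nt circRNA of Aebp1, on chromosome 14 from 86106154, had 5 and 33 counts, 7.19-fold lower (2.79 to 23.6). That of Fbln2, on chromosome 4 from 122888462, had 5 and 26 counts, 5.67-fold lower (2.14 to 18.9). Serpinh1 encodes the procollagen chaperone HSP47 and had the most short circRNAs of any protein-coding host, with 5. Its 198 nt circRNA on chromosome 1 from 164302522 had 56 and 129 counts, 2.51-fold lower (1.82 to 3.50). The other 4, of 35 to 128 nt, had 2 to 3 counts in induction and 2 to 4 in control, and none differed. The 3 fibrillin circRNAs had 2 to 4 counts in induction and 3 to 8 in control, and the 87 nt circRNA of Sparc (osteonectin) had 15 and 19.

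**Figure D5:**
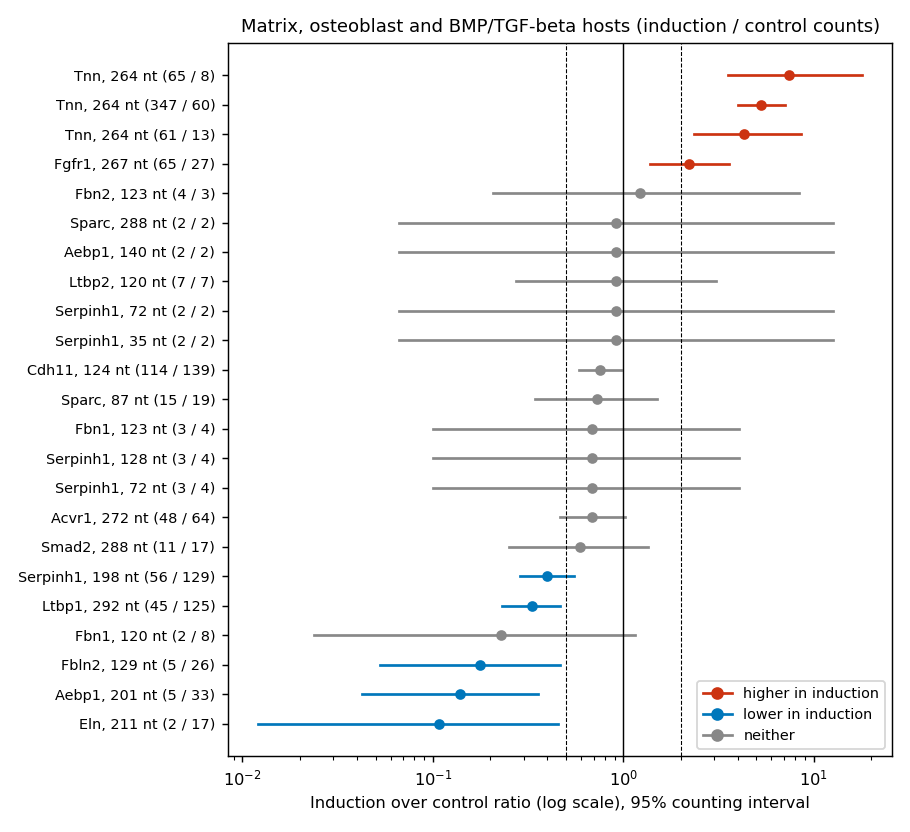
Ratio of induction over control (points, log scale) with 95% counting intervals for members hosted by matrix, osteoblast and BMP or TGF-beta genes, with induction and control counts in the row labels. The 3 Tnn circRNAs and Fgfr1 lie above 2-fold (dashed line at the right), and those of Eln, Aebp1, Fbln2, Ltbp1 and Serpinh1 (198 nt) lie beyond 2-fold at the left. The 120 nt circRNA of Fbn1 also lies there, with an interval that includes equal levels.

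Members were also looked for among genes of osteoblast signalling. Of 32 genes in the osteoblast and mineralisation list, 9 hosted a listed circRNA of any span, and 2 hosted members. The list had 2 members beside 19 longer circRNAs. Members were 5.31% of all listed circRNAs, so no scarcity of members is shown. Fgfr1, a fibroblast growth factor receptor, had a 267 nt circRNA on chromosome 16 from 71282782 with 65 counts in induction and 27 in control, 2.21-fold higher (1.39 to 3.60). Cdh11 encodes a cadherin of osteoblasts, and its 124 nt circRNA had 114 and 139 counts, a ratio of 0.752 (0.582 to 0.971). In the BMP and TGF-beta list, 4 members came from 4 hosts, of which 1 was lower and 3 were neither (median log2 ratio −0.65). The 22 longer circRNAs of this list had a median of −0.19, with 1 higher and 1 lower. Over all circRNAs 9.22% were higher and 9.29% lower. The lower member was that of Ltbp1, at 292 nt on chromosome 6 from 21539861, 3.03-fold lower (2.14 to 4.36). Acvr1, a type I receptor for BMPs, had 48 and 64 counts, Smad2, which carries the TGF-beta signal to the nucleus, had 11 and 17, and Ltbp2 had 7 in each column. None of these 3 differed. The only member of the Wnt list was in Dkk3, with 2 and 4 counts.

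The other lists held 9 members at most. Over all circRNAs 9.22% were higher and 9.29% lower. Fibronectin type III proteins had 4, all higher, of which 3 were those of Tnn. The fourth was that of Ptprk, a receptor tyrosine phosphatase, with 20 counts in induction and 7 in control, 2.62-fold higher (1.06 to 7.34). The 29 longer circRNAs of the fibronectin type III list had a median log2 ratio of 0.08, with 4 higher and 4 lower. EGF-repeat proteins had 9 members, with 3 higher and 2 lower, the higher ones again of Tnn. The 26 longer circRNAs of that list had 4 higher and 2 lower. Of 8 members in actin cytoskeleton and adhesion genes none was higher and 2 were lower, with a median log2 ratio of −0.70, against 9.22% higher and 9.29% lower over all circRNAs. The 77 longer circRNAs of these genes had a median of −0.12, with 7 higher and 8 lower. The 2 lower short ones were in Flna, the actin crosslinker filamin A, at 204 nt (3 and 15 counts, 5.45-fold lower), and in Sptan1, a spectrin chain, at 240 nt (7 and 20 counts). Chromatin regulators had 4, none of which differed, although the abundant 239 nt circRNA of Hdac4, a histone deacetylase that restrains Runx2, had 276 and 403 counts, 1.59-fold lower (1.36 to 1.86). The C2H2 and homeobox list held only Zfp521, which was higher. The RNA-binding list held Rbfox2, a splicing factor, and Rbm5. Rbfox2 had 38 and 115 counts, 3.30-fold lower (2.27 to 4.89), and Rbm5 had 4 and 5 and did not differ.

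Other members that were higher in induction rested on few control counts. The 104 nt circRNA of Mrc2, the endocytic receptor that takes up collagen, had 41 counts in induction and 6 in control, 6.27-fold higher (2.65 to 18.1). Those of the ubiquitin ligase Rnf130 (38 and 7), of Upf2, which acts in nonsense-mediated decay (21 and 4), and of Aasdh (18 and 4) were 4.98-fold, 4.82-fold and 4.13-fold higher, and all 3 spanned 193 to 195 nt. A 213 nt circRNA with a list of names on chromosome 12 had 26 and 6 counts. Lower members were found in genes of many functions. Derl2, which serves the removal of misfolded proteins from the endoplasmic reticulum, had 5 and 20 counts, and Myo1f, an unconventional myosin, had 5 and 26. A second circRNA of Myo1f, of 264 nt, had 11 and 4 counts and did not differ. Scd2, a fatty acid desaturase, had 3 overlapping short circRNAs, of which that of 160 nt was lower (13 and 38 counts, 3.19-fold), and the others had 5 and 2 counts in induction against 3 and 2 in control. A circRNA with a list of names of which only Dhrs11 was left as a host had 21 and 73 counts. Others with name lists were lower on chromosome 6 from 133791092 (2 and 20) and on chromosome 1 from 194917622 (2 and 15). Among genes chosen after their values were seen, Slc23a2, a vitamin C transporter, had 38 and 98 counts, 2.81-fold lower. The 3′ end processing factor Cpsf1 and the poly(A)-binding protein Pabpn1 had 11 and 23, and 7 and 23. Abundant members that did not differ included Scfd2 (173 and 192 counts, ratio 0.827) and AABR07059639.1, an unmatched locus name (145 and 180, ratio 0.739). So did a circRNA with a list of names on chromosome 1 from 11971713 (183 and 109, ratio 1.54, 1.21 to 1.97).

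In the authors' deposited table, 42 of the 220 had an FDR under 0.05 (19.1%, against 16.9% of all circRNAs), 11 of them higher and 31 lower in induction. Of the 38 that differed by the rule used here, 31 were among these 42. Both use the same 2 counts per circRNA, so they are not independent.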

How the data were processed

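The authors' deposited table gave whole-number counts for each circRNA in 1 induction and 1 control column, with coordinates on Rnor_6.0. The submitters' processing notes name BWA and FastQC. The circRNA caller and filters, and the merging of 3 libraries into 1 column, stand as not given in the sources used here. Per the file headers and values, the deposited TPM was the count over a column total (221596 for induction, 203283 for control), scaled to TPM without length correction. The authors' deposited log2 ratio was induction over control TPM. The deposited p-value and FDR compare 2 columns of reads.

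Here, ratios on those totals were given exact 95% Clopper-Pearson counting intervals (scipy 1.17.1). Such intervals leave out the spread between rats and duplicate reads. Names that recurred on several chromosomes, or lay over 5 Mb apart, were treated as spread and dropped. RefSeq of GRCr8 supplied names and promoters. Alternative scalings used edgeR 4.0.16 and DESeq2 1.42.0 on the deposited counts.

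Members and lists were chosen with earlier results of these data known. Named circRNAs were the 15 of highest mean TPM, the 10 largest called ratios each way, those of the matrix, osteoblast and BMP and TGF-beta lists, those of hosts with 3 or more, the 3 shortest, and the 3 on each side of 300 nt. Others named were chosen after their values were seen.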

Additional observations from a re-analysis of the deposited data

How the results depend on the processing

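No paired analysis was possible because the deposited columns pool the samples of a group. Leaving out single replicates and the edgeR test across libraries were therefore not run. With a 4-fold threshold, stricter by construction, 16 circRNAs differed in place of 38, of which 7 were higher and 9 lower. With a limit of 250 nt, 28 differed, of which 6 were higher in place of 11. The other alternatives kept each count within 1.5 times. Between them, 32 to 54 differed, with fewer higher than lower in each. The summed ratio of 0.810 stayed below 1 throughout. It was 0.739 with listed totals, 0.841 with DESeq2 size factors, 0.767 under 250 nt, 0.843 without spread names alone, 0.781 without LOC102723236 and 0.764 without Tnn. The members' share of listed counts was 3.35% in induction and 4.80% in control under 250 nt, and 5.54% and 7.53% under 400 nt, since fewer or more circRNAs are then counted. Leaving out Tnn, and leaving out the names of both small structured RNAs, were chosen after seeing the data, as was the median, which lay between −0.45 and −0.08. Listed totals moved every log2 ratio by −0.13. Ptprk then no longer differed beyond counting error (log2 ratio 1.26), and Tead1 passed 2-fold (−1.05). The RNaseP_nuc circRNA of 129 nt passed 2-fold with listed totals (−1.13) and with TMM (−1.01). So did the RNaseP_nuc circRNAs of 211 and 179 nt with listed totals (−1.01 and −1.06), and Rps6ka5 with DESeq2 size factors (1.05). In all, 11 of the 220 changed their call with listed totals (1 lost, 10 gained, a signal recognition particle RNA circRNA of 165 nt among them), 3 with TMM (all gained) and 3 with DESeq2 size factors (1 lost, 2 gained). A turn to the opposite direction was not possible, since each scaling moved all log2 ratios by the same amount, less than the 2-fold limit. Depth limits many members, since 108 of the 220 had under 20 counts over both columns.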
